A study of Arabidopsis thaliana with 6 samples.

Results

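The aquaporin genes of Arabidopsis thaliana were followed through a short heat treatment of light-exposed seedlings. The 35 genes of the family were taken by locus, as 13 PIP, 10 TIP, 9 NIP and 3 SIP genes, and each was matched to an Affymetrix probe set through the gene identifier in the authors' annotation. All 35 genes were found, and they were measured by 32 distinct probe sets among the 22746 tested, since 3 probe sets each named a pair of members. Members are written in the form of the protein databases, such as PIP1-1 for the gene that the plant literature writes with a semicolon.

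The samples were whole seedlings of ecotype Col-0, grown on solid medium at 23 °C under long days. The control group of 3 arrays stayed at 23 °C under light, and the heat group of 3 arrays received 37 °C for 30 min under light, with no other treatment named in the labels for either group. The series' design text speaks of 10-day-old seedlings, whereas the labels give each array another age, 10, 11 and 12 days for control replicates 1 to 3 and 13, 14 and 15 days for heat replicates 1 to 3. The dark groups that the design text mentions were not analysed here. The labels do not state whether replicates were grown separately, so p-values measure only the spread between these arrays, which may be technical, and 3 arrays a group limit the precision.

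Aquaporins are channel proteins that let water, and in some members small neutral solutes, pass through membranes. In plants the plasma membrane intrinsic proteins (PIPs) carry water across the cell surface and the tonoplast intrinsic proteins (TIPs) across the vacuolar membrane. The nodulin-like intrinsic proteins (NIPs), named for a protein of soybean root nodules, are known for boric acid, metalloids and glycerol, and the small basic intrinsic proteins (SIPs) sit in the endoplasmic reticulum. PIPs and TIPs set much of the hydraulic conductance of roots and leaves, and their transcripts are known to respond to drought, salt and light.

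Values are log2 levels summarised by RMA, and a change is the mean of the heat arrays minus the mean of the control arrays on that scale. Probe sets bind their targets with different strength, so levels were compared within a probe set. The labels' treatment showed in the heat check genes. HSP70B, a cytosolic chaperone, rose by 9.08 ± 0.07 and the small heat shock protein HSP17.6A by 9.76 ± 0.30 (change ± SE, limma adjusted p of 3.67e-08 and 5.38e-06, n = 3 arrays a group). The disaggregase HSP101 read 4.82, 4.87 and 8.22 in the controls and 13.69 to 13.83 after heat, and the heat stress factor HSFA2 read 3.69, 3.72 and 7.30 against 12.83 to 12.91, so control replicate 3 stood apart from the other controls in both genes. That array was also the highest control for HSP17.6A (3.74, 3.55 and 4.78), but not for HSP70B (4.62, 4.61 and 4.55). Without control replicate 3 the changes of HSP101 and HSFA2 were 8.90 and 9.15 instead of 7.78 and 7.95. The controls also differed from one another more than the heat arrays did, with standard deviations of the difference between arrays, over all probe sets, of 0.36 to 0.55 in control pairs and 0.19 to 0.28 in heat pairs. The gap between the 3′ and 5′ probe sets of control transcripts moved with treatment, from 3.04 to 3.33 in controls to 1.97 to 2.10 after heat for actin, from 2.18 to 2.54 to 1.33 to 1.69 for GAPDH, and from 0.27 to 0.57 to 0.83 to 0.86 for ubiquitin. The part of these differences in the results below was not tested. Leaf markers read 13.7 to 13.8 as a list mean in controls and 13.6 to 13.7 after heat, with 0 of 4 called by limma and 0 at an unadjusted p under 0.05. Root markers read 5.11 to 5.37 in controls and 5.09 to 5.17 after heat. Of these 5, 1 was called lower, PHO1, a phosphate exporter of the root stele (limma adjusted p = 0.0397). Over all probe sets tested, 11.5% were called lower and 7.82% higher. COBL9 and EXPA7, which define root hair cells, read at most 4.29 on any array. The other root markers read higher, SHR at 4.52 to 4.85, PHO1 at 4.74 to 6.40 and NRT1.1 at 7.65 to 8.03. A change in a bulk sample can come from fewer cells of a type or from less RNA per cell, and these cannot be told apart here.

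After heat 8 aquaporin probe sets were lower and 2 higher, and 22 were not called at an adjusted p under 0.05 (limma, Benjamini-Hochberg over all 22746 probe sets). The 2 that rose were PIP2-2/PIP2-3 and TIP1-1. The 8 that fell were PIP1-1, PIP1-2, PIP1-3, PIP2-6, TIP1-2, TIP2-1, TIP2-2 and TIP2-3. Of all probe sets tested, 7.82% were called higher and 11.5% lower, beside 6.25% and 25% of the aquaporin probe sets. A change of at least 2-fold was called upward in 2 members and downward in 3, against a background of 2.8% and 3.98%. The heat arrays lay above all controls in 6 of the 32 members and below all controls in 9, where the share over all probe sets was 18.8% and 20.0%. The median change over the 32 members was -0.01, and that over all probe sets was 0.02.

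The calls fell almost wholly on brightly read members. Of the 14 members in the brightest 25% of probe sets by mean level, 2 rose, 7 fell and 5 were not called, and of the 18 dimmer members 1 was called, TIP2-3. Calls were more frequent among bright probe sets in general, with 15.5% of the brightest 25% called higher and 17.7% lower. The share of bright members called lower was 50%. The division by brightness was chosen after the values were seen.

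By subfamily, calls were read beside the shares over all probe sets, 7.82% higher and 11.5% lower, or 15.5% and 17.7% in the brightest 25%, which held 9 of the 11 PIP, 4 of the 10 TIP, 0 of the 8 NIP and 1 of the 3 SIP probe sets. Of the 11 PIP probe sets, 1 rose and 4 fell, with a median change of 0.08. Of the 10 TIP probe sets, 1 rose and 4 fell, with a median of -0.20. None of the 8 NIP and 3 SIP probe sets was called by limma, with medians of 0.03 and -0.09, and 1 of each had an unadjusted p under 0.05. Members of a subfamily are not replicates, so the counts and medians were set side by side with no test of a difference between subfamilies.

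**Figure D1:**
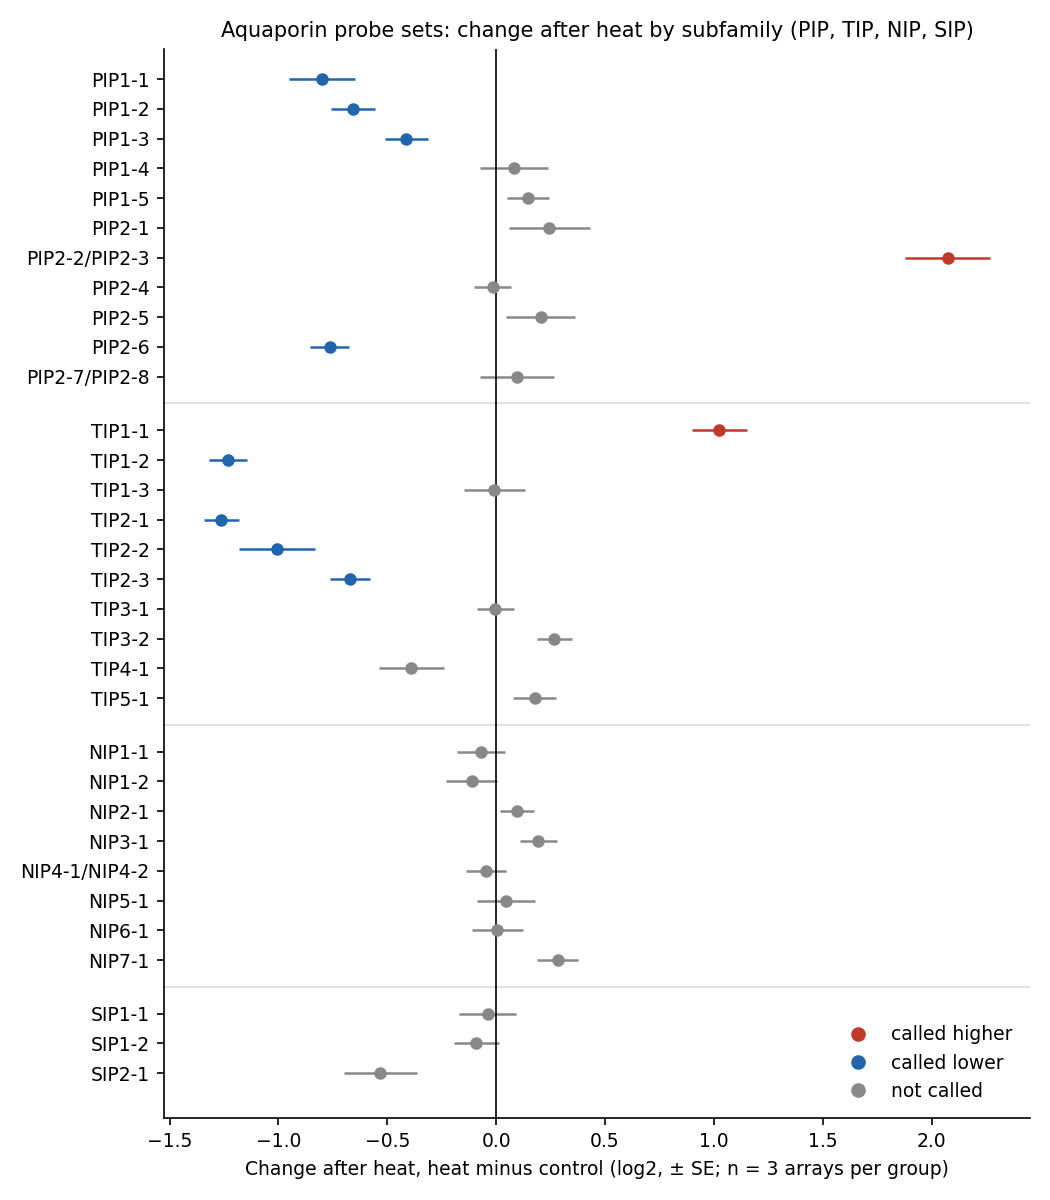
Log2 change from control to heat (heat minus control, x axis) for each of the 32 aquaporin probe sets, grouped by subfamily on the y axis, with bars for the limma standard error from 3 control and 3 heat arrays, coloured by call. PIP2-2/PIP2-3 at 2.07 and TIP1-1 at 1.03 lie farthest to the right, the called falls reach from -0.41 to -1.26, and the NIP points stay between -0.11 and 0.28.

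The PIP1 group split into 3 members that fell and 2 that were not called. PIP1-1 (AT3G61430), a plasma membrane aquaporin that reaches the cell surface together with PIP2 partners, read 10.91, 10.38 and 10.45 in control replicates 1 to 3 and 9.78, 9.68 and 9.88 in heat replicates 1 to 3. All heat arrays lay below all controls, with control replicate 1 the highest. The change was -0.80 ± 0.15 (limma adjusted p = 0.0134), or 57.5% of the control level, and the adjusted p was 0.0554 without heat replicate 1 and 0.0764 with unmoderated errors.

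PIP1-2 (AT2G45960), which is known for a large part in the water conductance of roots and rosettes, read 11.15, 10.99 and 10.92 in controls and 10.35, 10.49 and 10.25 after heat. The groups did not overlap and every heat array was lower. PIP1-2 fell by 0.66 ± 0.10 on the log2 scale (limma adjusted p = 0.00596), to 63.4% of the control level. PIP1-3 (AT1G01620) was the steadiest control reading of the group, at 10.30, 10.30 and 10.32, against 9.72, 10.02 and 9.96 after heat. All heat arrays were again lower. The change of -0.41 ± 0.10 passed narrowly (limma adjusted p = 0.0293), and it did not pass when any control array, heat replicate 1 or heat replicate 3 was left out, with adjusted p from 0.0595 to 0.0789, nor when array medians were centred, where the change was -0.31 and adjusted p 0.0596, nor with unmoderated errors (adjusted p = 0.0760).

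PIP1-4 (AT4G00430) and PIP1-5 (AT4G23400) were not called. PIP1-4 read 9.92, 9.70 and 9.35 in controls and 9.65, 9.87 and 9.68 after heat, so the groups overlapped. Its change was 0.08 ± 0.16 (limma adjusted p = 0.776), with a 95% interval of -0.29 to 0.45. On the deposited scaling, that interval leaves out a fall of the size measured for PIP1-1 or PIP1-2. It does not cover the uncertainty of the scaling, for which other values are given below. PIP1-5 read 9.06, 8.90 and 8.79 against 8.999, 9.05 and 9.14, again with overlap. The change of PIP1-5 was 0.15 ± 0.10 (limma adjusted p = 0.354, interval -0.08 to 0.37).

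The PIP2 group held the largest rise of the family. PIP2-2 and PIP2-3 (AT2G37170 and AT2G37180) are water channels of the root and shoot plasma membrane, the second first described as the desiccation-responsive gene RD28. They are neighbouring genes read by 1 probe set that names both, so that their transcripts cannot be told apart. That probe set read 9.12, 8.30 and 8.68 in controls and 10.76, 10.72 and 10.84 after heat. Every heat array was above every control, and the heat arrays spanned 0.12 while the controls spanned 0.81. The rise was 2.07 ± 0.20 (limma adjusted p = 0.000744), or 4.21-fold.

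PIP2-6 (AT2G39010), a plasma membrane water channel known from leaf veins and rosettes, moved the other way. It read 11.10, 11.19 and 11.15 in controls and 10.52, 10.28 and 10.32 after heat. The control arrays spanned 0.09 and the heat arrays were all lower. PIP2-6 fell by 0.77 ± 0.09 on the log2 scale (limma adjusted p = 0.00205), to 58.8% of the control level.

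The remaining PIP2 probe sets were not called. PIP2-1 (AT3G53420), a water channel of roots, leaf veins and guard cells that is regulated by phosphorylation, read 11.75, 11.25 and 11.01 in controls and 11.52, 11.57 and 11.65 after heat. Control replicate 1 was the highest of all 6 arrays, and the other 2 controls were the lowest. The change was 0.24 ± 0.19 (limma adjusted p = 0.421, interval -0.20 to 0.69). Without control replicate 1 it was 0.45 and was called (adjusted p = 0.0381), and without control replicate 3 it was 0.081 (adjusted p = 0.795), so that the value turned on which control was included.

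PIP2-7 and PIP2-8 (AT4G35100 and AT2G16850), plasma membrane water channels, shared a probe set that read 11.31, 10.94 and 10.61 against 10.98, 11.11 and 11.06. The groups overlapped and control replicate 1 was the highest array. The change was 0.10 ± 0.17 (limma adjusted p = 0.754, interval -0.31 to 0.51). PIP2-8 also had a dimmer probe set of its own, at 3.08 to 3.22 in controls and 3.22 to 3.41 after heat, with a change of 0.17 ± 0.09 (limma adjusted p = 0.247).

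The 2 dim members of the group, PIP2-4 (AT5G60660), known from roots, and PIP2-5 (AT3G54820), were also not called. PIP2-4 stayed between 4.96 and 5.16 on all 6 arrays (change -0.02 ± 0.08, limma adjusted p = 0.920). PIP2-5 read 5.47, 5.50 and 4.94 against 5.51, 5.47 and 5.54, with control replicate 3 alone lower than the rest (change 0.20 ± 0.16, limma adjusted p = 0.430).

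Among the TIPs, TIP2-1, TIP1-2 and TIP2-2 had the largest falls of the family, and 1 member rose. TIP2-1 (AT3G16240), the delta-TIP of the vacuolar membrane that conducts water and ammonia, read 11.74, 11.72 and 11.60 in controls and 10.49, 10.37 and 10.41 after heat. The nearest arrays of the groups were 1.11 apart, with little spread within either. TIP2-1 fell by 1.26 ± 0.08 on the log2 scale (limma adjusted p = 0.000136), to 41.7% of the control level. TIP1-2 (AT3G26520), a gamma-TIP type vacuolar water channel, read 12.44, 12.57 and 12.54 against 11.30, 11.17 and 11.39. All heat arrays were again well below all controls. TIP1-2 fell by 1.23 ± 0.09 (limma adjusted p = 0.00023), to 42.6%.

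TIP2-2 (AT4G17340), a second delta-TIP type channel that is known mainly from roots, read 9.54, 8.88 and 9.15 in controls and 8.15, 8.07 and 8.34 after heat. The controls were more scattered than for TIP2-1, but no heat array reached the lowest of them. TIP2-2 fell by 1.01 ± 0.18 (limma adjusted p = 0.00946), to 49.8% of the control level, and with unmoderated errors the adjusted p was 0.0688. TIP2-3 (AT5G47450), the third delta-TIP type gene and also known from roots, read 6.19, 5.93 and 5.97 against 5.38, 5.38 and 5.31. Every heat array was lower. TIP2-3 fell by 0.67 ± 0.09 (limma adjusted p = 0.00375), to 62.8%, so that all 3 TIP2 genes were called lower.

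TIP1-1 (AT2G36830), the gamma-TIP that is abundant in the vacuoles of elongating cells, was the member that rose. It read 9.77, 9.34 and 9.37 in controls and 10.50, 10.54 and 10.52 after heat. Every heat array was above every control, and the heat arrays spanned 0.04. The rise was 1.03 ± 0.13 (limma adjusted p = 0.00236), or 2.04-fold. TIP1-1 and TIP1-2 thus changed in opposite directions on the same arrays.

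The other 5 TIP probe sets were not called. TIP4-1 (AT2G25810), known from roots, read 5.11, 4.73 and 4.90 in controls and 4.42, 4.79 and 4.36 after heat. One heat array, replicate 2, overlapped the controls, and the change was -0.39 ± 0.15 (limma adjusted p = 0.127). TIP3-2 (AT1G17810), a vacuolar channel of seeds, read 3.85, 3.70 and 3.75 against 4.10, 4.00 and 4.00. The heat arrays were all higher by a small amount, and the change of 0.27 ± 0.08 did not pass (limma adjusted p = 0.0655). TIP3-1 (AT1G73190), the other seed TIP, and TIP1-3 (AT4G01470) and TIP5-1 (AT3G47440), both known from pollen, lay between 3.58 and 4.16 on all arrays with changes of -0.00341, -0.01 and 0.18. The seed markers of the sample check, storage proteins and oleosins, had list means of 3.43 to 3.55 in controls and 3.49 to 3.65 after heat, and the pollen markers 3.22 to 3.25 and 3.26 to 3.38. None of the 5 seed and 4 pollen probe sets was called by limma, and 1 pollen probe set, AGP6, had an unadjusted p under 0.05.

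**Figure D2:**
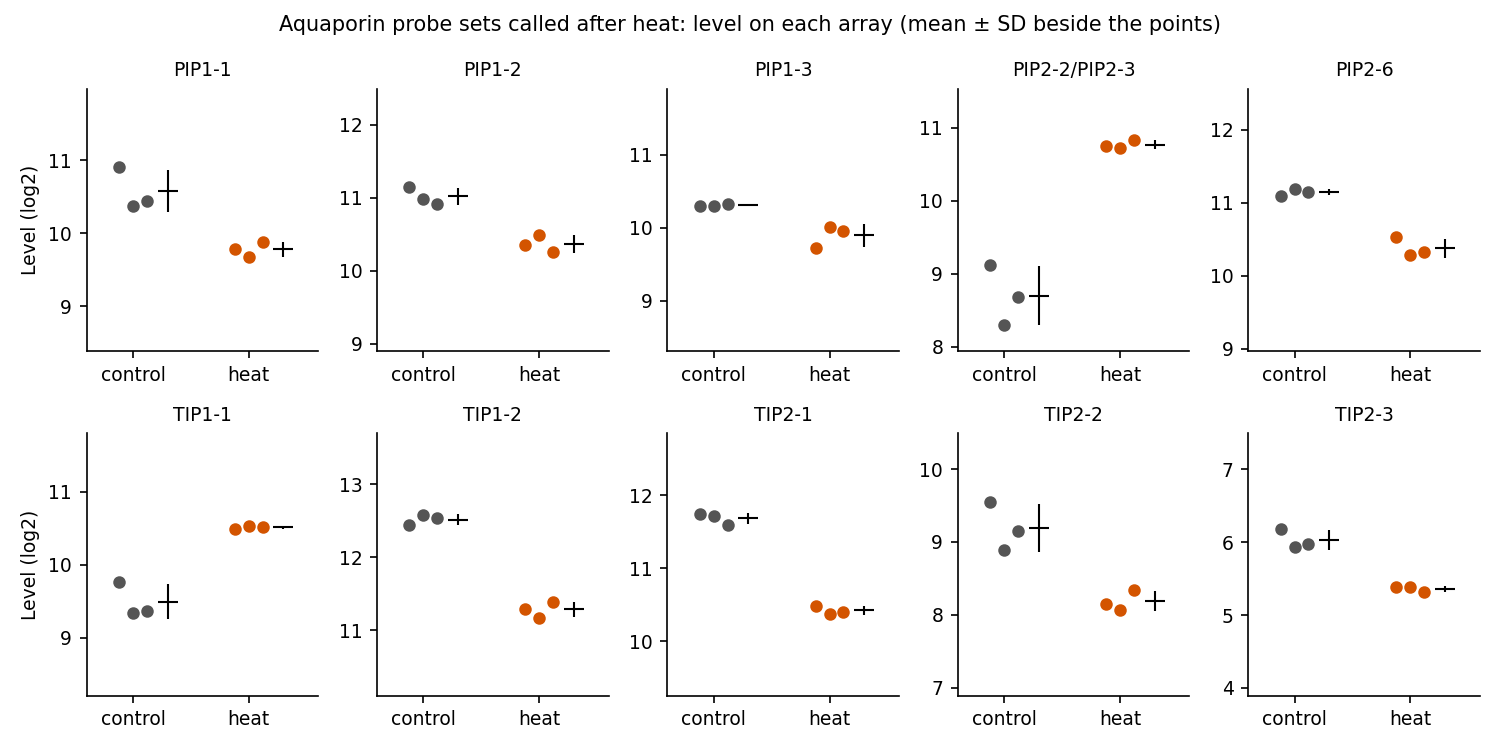
Log2 level (y axis) of the 10 called aquaporin probe sets on each of the 3 control and 3 heat arrays, 1 panel per probe set and 1 point per array, with the mean ± SD beside the points. The heat points of PIP2-2/PIP2-3 (10.72 to 10.84) and TIP1-1 (10.50 to 10.54) sit above all their control points, and those of TIP1-2 and TIP2-1 sit below.

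The NIP probe sets were all dim and none was called. Their levels ran from 3.44 to 5.05, in the range where the 25th percentile and the median of the mean level over all probe sets lay at 3.56 and 4.51. The files give no detection calls, so it was not measured whether these probe sets stood above background. The changes ran from -0.11 to 0.28 with a median of 0.03. NIP5-1 (AT4G10380), the boric acid channel of root uptake, had the brightest NIP probe set and read 5.05, 4.63 and 4.62 in controls and 4.84, 4.72 and 4.87 after heat. The groups overlapped, and the change was 0.04 ± 0.13 (limma adjusted p = 0.863). NIP7-1 (AT3G06100), a boric acid channel known from anthers, read 4.47, 4.40 and 4.36 against 4.85, 4.58 and 4.65. All heat arrays were higher, and the change of 0.28 ± 0.09 was the largest of the NIPs but did not pass (limma adjusted p = 0.0860).

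NIP2-1 (AT2G34390) and NIP3-1 (AT1G31885) also had all heat arrays above all controls, by changes of 0.10 and 0.19 (limma adjusted p of 0.452 and 0.177). The nearest control and heat arrays were only 0.0019 and 0.040 apart. Heat arrays lay above all controls in 3 of the 8 NIP probe sets, beside 18.8% of all probe sets. The probe set of NIP2-1, a channel known from waterlogged roots, also names the locus AT2G29870, so that its signal may be shared. NIP1-1 (AT4G19030) and NIP1-2 (AT4G18910), known for arsenite transport in roots, had changes of -0.07 and -0.11 with overlapping groups. NIP6-1 (AT1G80760), a boric acid channel of shoot nodes, changed by 0.01. NIP4-1 and NIP4-2 (AT5G37810 and AT5G37820), neighbouring genes known from pollen that share 1 probe set, changed by -0.05.

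None of the 3 SIP probe sets was called. SIP1-1 (AT3G04090) was the brightest SIP probe set and read 8.34, 7.96 and 7.98 in controls and 8.19, 7.98 and 7.99 after heat. The groups overlapped almost fully, with a change of -0.04 ± 0.13 (limma adjusted p = 0.873). SIP1-2 (AT5G18290) read 5.20, 5.08 and 4.95 against 5.03, 5.08 and 4.85, a change of -0.09 ± 0.10 with overlap (limma adjusted p = 0.605). SIP2-1 (AT3G56950) read 6.66, 6.34 and 6.38 in controls and 6.17, 5.61 and 6.004 after heat. All its heat arrays were lower, and the change of -0.53 ± 0.17 did not pass (limma adjusted p = 0.0709).

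Control replicate 1 was the highest of the 3 controls in 24 of the 32 members and in 11 of the 14 bright ones. Over all probe sets in the brightest 25%, the same array was the highest control in 50.6%. The mean level over the 11 PIP probe sets was 9.56 on that array and 9.32 and 9.21 on the other controls, beside 9.36 to 9.40 on the heat arrays. Over the 10 TIP probe sets it was 7.05, 6.80 and 6.84 in controls and 6.57 to 6.61 after heat. All 10 calls held when control replicate 1 was left out, except that of PIP1-3.

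The labelled age rises with array order and is nearly the same as the grouping, and it touched most calls. With age as a covariate, limma called TIP1-2 at -1.37 (adjusted p = 0.0293) and TIP2-1 at -1.09 (adjusted p = 0.0388) and no other member. The rises of PIP2-2/PIP2-3 and TIP1-1 were then 2.35 and 1.31 (adjusted p of 0.0594 and 0.0723). The remaining falls were -0.41 to -0.86 with adjusted p of 0.197 to 0.505, and none of the 10 called members changed direction. In that fit 227 probe sets of the whole table were called lower and 359 higher, against 2614 and 1778 without age. The heat check genes HSP101 and HSFA2 also lost their calls there, at 5.22 and 5.25 (limma adjusted p of 0.179 and 0.202). HSP70B and HSP17.6A kept theirs, at 9.12 and 8.93 (limma adjusted p of 0.000108 and 0.00227).

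The scaling of the arrays also bears on every change. With array medians centred the median change of all probe sets was 0.12. When the arrays were scaled to the Bacillus control probe sets instead, the median change of all probe sets was -0.43, and -0.49 when the dim trp probe sets were left out of the scaling. The 8 falls were then -0.86 to -1.71 and -0.92 to -1.77, PIP2-2/PIP2-3 rose by 1.62 and 1.57, and TIP1-1 rose by 0.57 and 0.52, the last no longer called (adjusted p = 0.0528). None of the 10 called members changed direction under any of the scalings tried.

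Differences between members on the same array do not depend on a shift common to all probe sets. The 5 pairs shown were chosen after the values were seen and carry no test, and only the change of a difference is read, since the levels of different probe sets are not comparable. TIP1-1 minus TIP1-2 was -2.67, -3.23 and -3.17 in controls and -0.80, -0.63 and -0.87 after heat, a change of 2.26 or 4.78-fold. TIP1-1 minus TIP2-1 changed by 2.29, from -2.19 ± 0.21 to 0.10 ± 0.08 (SD, n = 3).

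PIP2-2/PIP2-3 minus PIP2-1 was -2.64, -2.95 and -2.33 in controls and -0.76, -0.85 and -0.82 after heat, a change of 1.83. PIP2-2/PIP2-3 minus PIP2-6 changed by 2.84, the widest of the 5 pairs, from -2.45 ± 0.45 to 0.39 ± 0.14 (SD, n = 3). PIP1-4 minus PIP1-1 was -0.98, -0.68 and -1.10 in controls and -0.13, 0.20 and -0.20 after heat, a change of 0.88. The values of the control and heat arrays did not overlap in any pair, which the choice of members with unlike changes fixed.

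**Figure D3:**
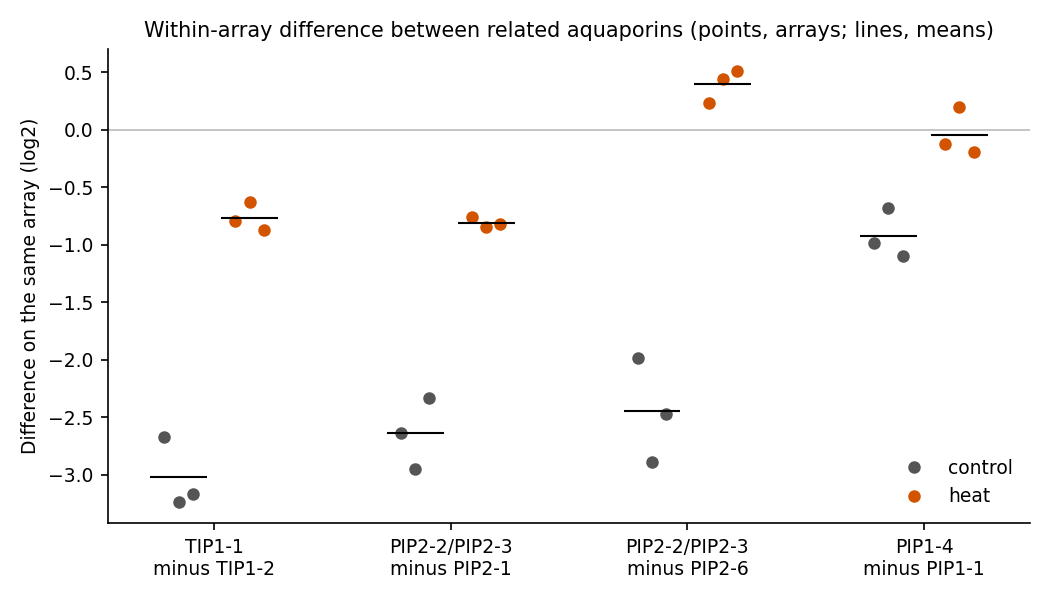
Difference in log2 level between 2 aquaporin probe sets on the same array (y axis) for 4 of the pairs, 1 point for each of the 3 control and 3 heat arrays and a line at each group mean. Heat and control points are apart in every pair, with changes of 0.88 (PIP1-4 minus PIP1-1) to 2.84 (PIP2-2/PIP2-3 minus PIP2-6).

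Genes that act on aquaporins or beside them were read in the same fit. Of 12 genes of aquaporin trafficking and regulation, 3 fell and none rose, beside 11.5% lower and 7.82% higher over all probe sets, with a median change of -0.33. The receptor-like kinase SIRK1 (AT5G10020), which is known to act on PIPs, read 5.40, 5.15 and 4.96 in controls and 3.87, 4.08 and 4.38 after heat, with all heat arrays lower. SIRK1 fell by 1.06 ± 0.17 (limma adjusted p = 0.00614). The co-receptor kinase BAK1 fell by 1.12 ± 0.20 (limma adjusted p = 0.0113). The receptor-like kinase gene AT3G02880 changed by -1.60 ± 0.43 (limma adjusted p = 0.0431), with control replicate 3 at 9.11 against 7.41 and 7.81, and was not called without control replicate 2 or without any heat array (adjusted p of 0.0825 to 0.142). SYP121, a syntaxin that delivers PIPs to the plasma membrane, read 6.23, 7.97 and 9.13 in controls, a spread wider than the heat range of 6.55 to 6.84, and was not called (limma adjusted p = 0.296). RMA1, a ubiquitin ligase known to act on a PIP2, read 7.35, 6.56 and 5.93 against 5.47, 5.13 and 5.58 (change -1.22, limma adjusted p = 0.0514).

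Of the 11 plasma membrane proton pump genes, 4 fell and none rose. The 4 were those that read above 7 in controls, and over all probe sets 11.5% were lower and 7.82% higher, with 17.7% lower in the brightest 25%. AHA3 read 8.35, 8.15 and 8.41 in controls and 6.71, 7.03 and 6.83 after heat, and fell by 1.45 ± 0.12 (limma adjusted p = 0.000367). AHA2 fell by 0.81 ± 0.11 and AHA1, the other broadly expressed pump, by 0.53 ± 0.08 (limma adjusted p of 0.00304 and 0.00622). AHA11 fell by 0.71 ± 0.16 (limma adjusted p = 0.0217), and was not called without control replicate 2, heat replicate 1 or heat replicate 3 (adjusted p of 0.0693 to 0.0848). The median over the list was 0.02, as its other 7 members, all dim, changed by -0.05 to 0.12.

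Among 6 subunits and pumps of the vacuole and endosomes, 3 were called lower and none higher, beside 11.5% and 7.82% over all probe sets, with a median of -0.29. AVP1, the vacuolar pyrophosphatase that pumps protons, read 11.29, 11.52 and 10.99 in controls and 9.83, 10.06 and 9.80 after heat. The nearest arrays of the groups were 0.93 apart, and AVP1 fell by 1.37 ± 0.15 (limma adjusted p = 0.00145). VHA-a2 and VHA-a3, the vacuolar membrane subunits of the V-ATPase, changed by -0.51 and -0.31 (limma adjusted p of 0.0256 and 0.0404). The call of VHA-a3 was lost when any array was left out (adjusted p of 0.0625 to 0.126) and that of VHA-a2 when any array but control replicate 1 was (adjusted p of 0.0524 to 0.0830).

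Of 3 boron exporters, which work with the boric acid channels of the NIP group, 1 was called, beside the same background. BOR2 was called lower at -1.15 ± 0.26 (limma adjusted p = 0.0246), which did not pass when control replicate 2, heat replicate 1 or heat replicate 3 was omitted (adjusted p of 0.0591 to 0.0948), and BOR1 and BOR4 were not called. Of 9 dehydration and abscisic acid markers, 2 rose and 1 fell, beside 7.82% higher and 11.5% lower over all probe sets, with a median of 0.20. The fall of 1 in 9 is near that background. The transcription factor DREB2A, known from both drought and heat, read 6.10, 8.95 and 9.55 in controls and 12.20 to 12.35 after heat, a rise of 4.07 ± 0.83 (limma adjusted p = 0.0173). Its controls spanned 3.45, with control replicate 1 the lowest, and leaving out any of the heat arrays ended the call (adjusted p of 0.0560 to 0.0661). The dehydrin COR47 rose by 1.16 ± 0.24 (limma adjusted p = 0.0173), which did not pass without control replicate 2 or without any of the heat arrays (adjusted p of 0.0518 to 0.0605). RAB18, an abscisic acid responsive dehydrin, changed by -0.89 ± 0.24 (limma adjusted p = 0.0436). That did not pass when control replicate 2, control replicate 3, heat replicate 1 or heat replicate 2 was omitted (adjusted p of 0.0890 to 0.111). RAB18 was also not called with quantile normalization, array medians centred or unmoderated errors (adjusted p of 0.0692, 0.0597 and 0.153). Its call held in the other 10 of 17 alternatives. The abscisic acid synthesis gene NCED3 and the markers RD29A, RD29B, RD22, ERD10 and ERD14 were not called, with changes of -0.57 to 0.39.

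**Figure D4:**
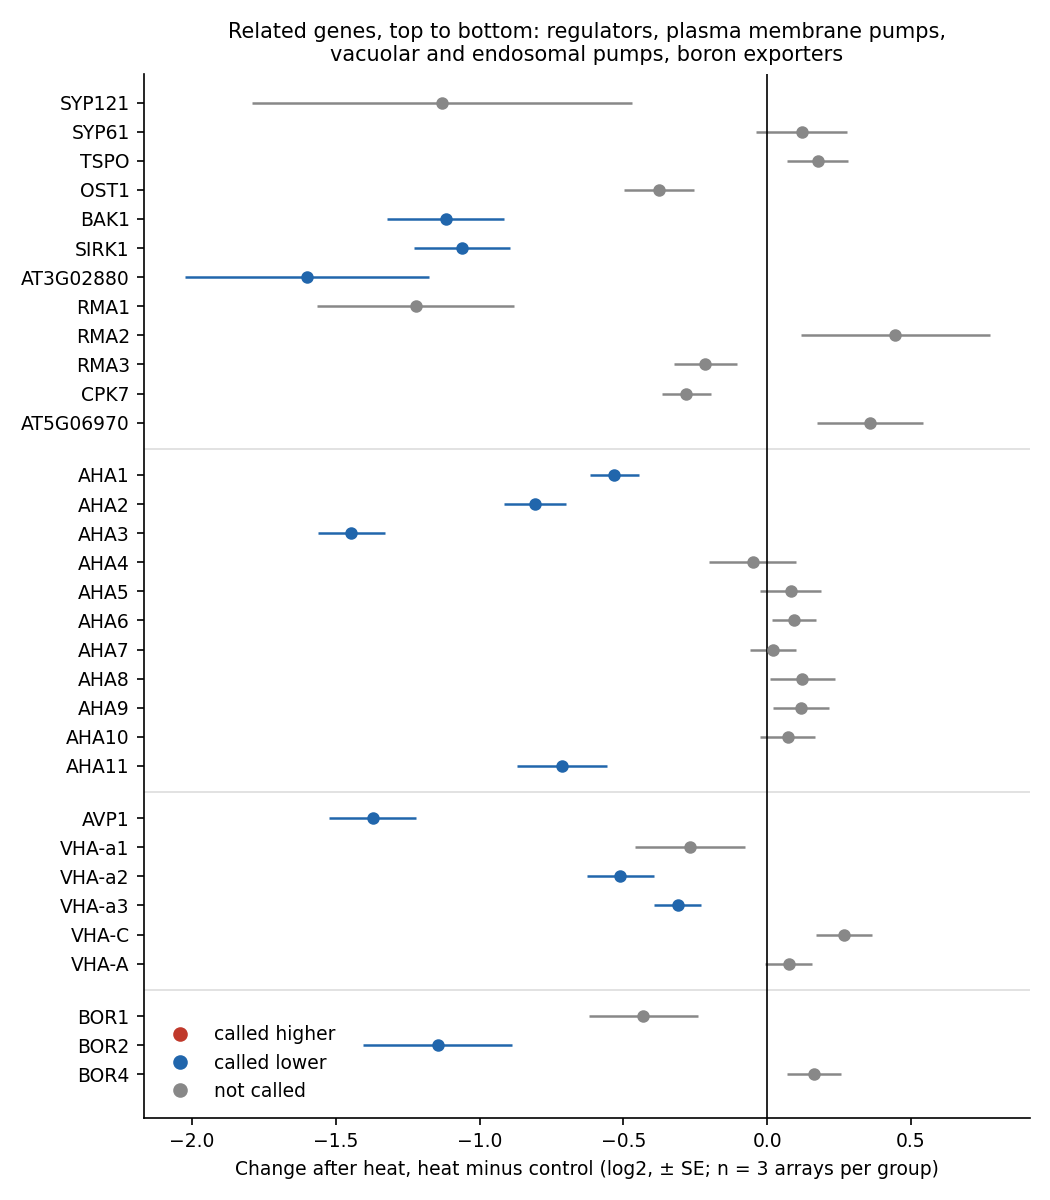
Log2 change from control to heat (heat minus control) with its limma standard error for the regulators, proton pumps and boron exporters, from 3 control and 3 heat arrays, coloured by call. AHA3 (-1.45) and AVP1 (-1.37) are among the lowest called points, and no gene of these lists was called higher.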

How the data were processed

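RNA of 3 control and 3 heat samples was measured on 1 Affymetrix array each. The authors deposited log2 levels for each array, made with RMA per the submitters' processing notes. The authors' annotated table adds linear ratios of same-numbered control and heat arrays, whose log2 lay within 0.000101 of the difference in level. That table's gene identifiers named the probe sets: 20661 of those tested name 1 gene, 819 several and 1266 none. RefSeq's TAIR10.1 gene table was used to turn those identifiers into loci, by which the members were found, and to find neighbouring genes. RMA's version, the genome build and the annotation release: not given in the sources used here.

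Values were used as deposited. Of 22810 probe sets, 64 controls were left out. Heat was set against control with limma (version 3.58.1, R 4.3.3), using lmFit and eBayes with group as the factor, 2-sided, on 4 residual plus 2.65 prior degrees of freedom, and p-values were adjusted by Benjamini-Hochberg over the 22746 remaining. An exact permutation of 3 against 3 arrays cannot go below p = 0.1. The fit was checked on simulated data with independent noise and known changes. Those data held no array-wide shift and no age effect, so that check does not bear on the scaling or the age. The probe set with the highest mean over all arrays stood for a gene, and a probe set shared by members was counted once. Errors of changes are limma standard errors.

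The members and lists were chosen with earlier results of these data known. All aquaporin members were named, and from each related list up to 4 called genes with the largest change. SYP121, RMA1 and the uncalled dehydration markers were named after their values were seen. Alternatives were other scalings, filters, variance priors, array weights, the replicate number as a block, the labelled age, each array left out, and probe sets averaged or left out. The scaling without trp was chosen after seeing the data.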

Additional observations from a re-analysis of the deposited data

How the results depend on the processing

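Each gene's change was recomputed under 17 alternatives. TIP1-2 and TIP2-1 kept direction and call in all of them, and the other 8 called members kept their direction, with calls lost as given in the report and, for PIP1-3, below with the replicate block. The counts of called aquaporins were 5 higher with array medians centred, 2 higher and 13 lower with Bacillus scaling, 1 higher and 16 lower with that scaling without trp, 5 lower with unmoderated errors, 0 higher and 2 lower with the labelled age, 1 higher with probe sets naming several genes left out, and 3 lower at a 2-fold minimum. Leaving out 1 array gave 2 to 3 higher and 6 to 8 lower. The whole table held 1778 higher and 2614 lower calls, against 3054 and 2126 with medians centred, 662 and 8360 with Bacillus scaling, 643 and 9667 without trp, and 971 and 1178 with unmoderated errors.

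The same-numbered arrays deviated with correlations of 0.04, 0.19 and -0.08, and 2 control arrays correlated best with another number (0.155 and 0.0348). The 0.19 of replicate 2 was the highest of all pairs. With 3 arrays a group these correlations cannot decide whether same-numbered arrays were paired. With the replicate block the aquaporin counts were again 2 higher and 8 lower, with PIP1-3 not called (adjusted p = 0.0560) and SIP2-1 called (adjusted p = 0.0361), and 1 vacuolar or endosomal pump was called.

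With Bacillus scaling the PIP, TIP, NIP and SIP medians were -0.37, -0.65, -0.43 and -0.54, and without trp -0.42, -0.70, -0.48 and -0.59. With age the PIP, NIP and SIP medians were 0.24, 0.13 and 0.23, and with medians centred the NIP median was 0.13. The PIP median ranged from -0.074 to 0.21 with 1 array left out. Calls among the regulators were 8 with either Bacillus scaling, 5 with a trended prior, 0 with unmoderated errors, 0 with age and 2 to 6 with 1 array left out. Plasma membrane pumps had 1 call with age. Vacuolar and endosomal pumps had 1 with unmoderated errors, 0 with age and 1 to 2 with 1 array left out. Boron exporters had 2 with either Bacillus scaling, 0 with unmoderated errors, 0 with age and 0 to 1 with 1 array left out. Dehydration markers had 5 and 6 with the Bacillus scalings, 0 with unmoderated errors, 1 with age and 0 to 3 with 1 array left out.

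Members that were not called changed sign as follows, and none was called in the new direction. With Bacillus scaling, first with and then without trp, the changes were -0.37 and -0.42 for PIP1-4, -0.31 and -0.36 for PIP1-5, -0.21 and -0.26 for PIP2-1, -0.25 and -0.30 for PIP2-5, and -0.35 and -0.41 for PIP2-7/PIP2-8. They were -0.18 and -0.24 for TIP3-2, -0.27 and -0.33 for TIP5-1, -0.35 and -0.41 for NIP2-1, -0.26 and -0.31 for NIP3-1, -0.41 and -0.46 for NIP5-1, -0.44 and -0.50 for NIP6-1, and -0.17 and -0.22 for NIP7-1. With medians centred they were 0.086 for PIP2-4, 0.094 for TIP1-3, 0.099 for TIP3-1, 0.033 for NIP1-1, 0.057 for NIP4-1/NIP4-2, 0.063 for SIP1-1 and 0.012 for SIP1-2. With quantile normalization they were -0.059 for PIP1-4, 0.13 for PIP2-4 and 0.061 for SIP1-2. With age they were 0.020 for PIP2-4, 0.43 for TIP1-3, 0.055 for TIP3-1, 0.26 for NIP1-1, 0.0031 for NIP4-1/NIP4-2, 0.38 for SIP1-1 and 0.23 for SIP1-2. With array weights they were 0.015 for PIP2-4, 0.0037 for TIP1-3, 0.0090 for TIP3-1, 0.0035 for NIP4-1/NIP4-2, -0.047 for NIP6-1 and 0.010 for SIP1-1. With 1 array left out they ranged from -0.074 to 0.21 for PIP1-4, -0.061 to 0.043 for PIP2-4, -0.074 to 0.27 for PIP2-7/PIP2-8, -0.085 to 0.14 for TIP1-3, -0.061 to 0.039 for TIP3-1, -0.12 to 0.019 for NIP1-1, -0.029 to 0.18 for NIP5-1, -0.11 to 0.091 for NIP6-1 and -0.11 to 0.083 for SIP1-1. The causes were not tested. With medians centred TIP3-2, NIP3-1 and NIP7-1 were called higher. NIP7-1 was also called higher with quantile normalization, and TIP3-2 with array weights. With either Bacillus scaling TIP4-1, NIP1-2, NIP4-1/NIP4-2, SIP1-2 and SIP2-1 were called lower. Without trp PIP2-4, NIP1-1 and SIP1-1 were called lower as well. The absence of NIP and SIP calls thus depended on the scaling and, for SIP2-1, also on the replicate block. The whole table moved as well. Of all 22746 probe sets, 3054 were called higher with medians centred, against 1778 in the main fit. Called lower were 8360 and 9667 with the Bacillus scalings, against 2614. The added calls are therefore not particular to these members. Detection is not given in the files, so small changes of dim probe sets could not be weighed.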
